A study of Homo sapiens with 12 samples.

Results

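The genes described here are 37 interferon-stimulated genes, followed in HK-2 cells exposed to CsA or to vehicle. They were chosen by name, from a list of well-known interferon targets, and each gene is represented by whichever of its probe sets averaged highest over the 12 arrays. Of the 37 genes, 36 had a probe set paired with that symbol alone, out of 19775 genes on the array, and 28 of the 10508 genes tested were members of the list. STAT2 is not analysed here.

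HK-2 is an immortalised line derived from human kidney proximal tubule, so every array reports on 1 line of cells in culture. The labels write only CsA, taken to be cyclosporine A, the calcineurin inhibitor given against graft rejection whose known side effect is kidney damage, and they give no dose. The 4 groups of 3 biological replicates were control at 12 h, CsA at 12 h, control at 48 h and CsA at 48 h. All cells, controls included, grew in a DMEM and Ham's F12 mixture supplemented with EGF, hydrocortisone, insulin, transferrin and selenite, and no group was given interferon by its label. RNA was measured on Affymetrix arrays, and all values are log2 GCRMA values, in which a difference of 1 is a doubling. Values given as triplets are always in the order of replicates 1, 2 and 3.

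Cells secrete type I interferons when they sense viral or misplaced nucleic acid, and neighbouring cells read them through the receptor chains IFNAR1 and IFNAR2. The kinases JAK1 and TYK2 then pass the signal on to a complex with IRF9 that binds the interferon-stimulated response element, whereas targets of interferon gamma often carry the gamma-activated site. The induced proteins block viral entry, translation and replication, tag proteins with ISG15 and raise antigen presentation, and many of them keep a low basal level without added interferon.

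The promoter sequences of the members were searched because the response element is the feature that ties these genes to the pathway. The core was spelled GAAANNGAAA and the gamma-activated site TTCNNNGAA, both were searched on both strands, overlapping matches were each counted, and the windows ran from 250 bases before to 50 bases after each start in RefSeq's table for GRCh38.p14. The 8 stretches below belong to members whose values are described most closely. Capitals mark the matches to the core, or for IRF1 the match to the gamma-activated site, and each stretch is printed 5′ to 3′ on the strand of its gene.
IFIT1, chr10:89392492-89392544, plus strand: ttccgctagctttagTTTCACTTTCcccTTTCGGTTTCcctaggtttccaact
IFIT3, chr10:89332420-89332502, plus strand: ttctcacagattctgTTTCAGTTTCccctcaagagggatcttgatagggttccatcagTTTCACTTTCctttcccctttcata
IFI44L, chr1:78620269-78620399, plus strand: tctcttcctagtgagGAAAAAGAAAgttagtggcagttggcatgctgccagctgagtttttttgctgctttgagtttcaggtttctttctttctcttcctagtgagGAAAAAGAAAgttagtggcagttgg
OAS3, chr12:112938316-112938486, plus strand: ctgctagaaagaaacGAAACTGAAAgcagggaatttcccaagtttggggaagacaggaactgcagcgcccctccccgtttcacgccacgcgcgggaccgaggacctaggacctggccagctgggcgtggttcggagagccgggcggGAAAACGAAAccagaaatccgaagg
ISG15, chr1:1013369-1013414, plus strand: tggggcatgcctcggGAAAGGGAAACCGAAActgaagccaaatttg
DTX3L, chr3:122564317-122564352, plus strand: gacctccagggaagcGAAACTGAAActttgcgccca
PARP9, chr3:122564317-122564356, minus strand: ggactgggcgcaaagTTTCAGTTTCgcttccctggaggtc
IRF1, chr5:132490874-132490912, minus strand: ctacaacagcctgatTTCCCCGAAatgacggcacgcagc

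The IFIT1 and IFIT3 stretches each held 2 matches on the strand opposite to the gene, and IFI44L held the same 10 letters at 2 places. In ISG15 the matches overlapped, so that they read as 1 run of capitals. DTX3L and PARP9 lie head to head and share a single match at chr3:122564332-122564341, which is read from opposite strands in the 2 genes. Of the 37 members, 29 were in the promoter table, and 20 of these, or 69.0%, held the response element core, against 4.38% of the 27305 genes in the table. Among the 24 tested members in the table, 17 held it. The members in the table without an exact match were CMPK2, HERC6, IFI35, IRF1, IRF9, OAS1, SAMHD1, STAT2 and XAF1. IFIT2, IFITM2, IRF7, MX2, OAS2, OASL, TRIM22 and USP18 were not in the table. With 1 mismatch allowed, 25 of 29 members held the core, beside 37.7% of genes, and HERC6, IRF1, IRF9 and STAT2 did not. The gamma-activated site was found in 9 of 29 members, or 31.0%, and in 9.38% of genes. A match is a description of the letters in this window and says nothing about which factor was bound in these cells.

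The arrays were alike in overall level, with medians between 2.85 and 2.96. Within a group a typical gene had a standard deviation (median over genes) of 0.12 in either 12 h group, 0.21 in control cells at 48 h and 0.28 in CsA cells at 48 h. For the tested members it was larger in each group, at 0.21, 0.23, 0.39 and 0.42 in control 12 h, CsA 12 h, control 48 h and CsA 48 h. Arrays of CsA and control cells that share a number and a time shifted from their group means in the same sense, so each member is also given by numbered pair. Of 18 epithelial and proximal tubule markers 9 were above 4 on all arrays, among them KRT8, KRT18, CDH1, EPCAM, VIM and DPP4. The brush border and transport genes ANPEP, GGT1, LRP2, CUBN, AQP1, SLC34A1, SLC22A6 and SLC5A2 were above 4 on none, so these markers were not seen, whereas DPP4 was. MME, the remaining marker of the list, did not pass the filter in any group. All 11 leukocyte markers with a probe set were below 4 on every array, with a summed log2 level between 5.87 and 5.97.

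Most of the interferon-stimulated genes were on in these cells without added interferon. A member was counted as expressed in a group when its probe set was above 4 on all 3 arrays, and 25 of the 36 were above 4 on all 12 arrays. A further 3 passed in some groups only. IFI44L passed in both CsA groups, OAS1 in both 12 h groups, and OASL in each group other than control 12 h. The other 8, namely IFI27, MX1, MX2, OAS2, RSAD2, TRIM22, USP18 and XAF1, were not tested in the main fit, and their values lay between 1.86 and 4.65. The list therefore split within families, with OAS3 above 4 on all arrays and OAS2, its neighbour in the same family of RNA-activated synthetases, below 4 on all. No member entered the tests through 1 group alone.

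**Figure D1:**
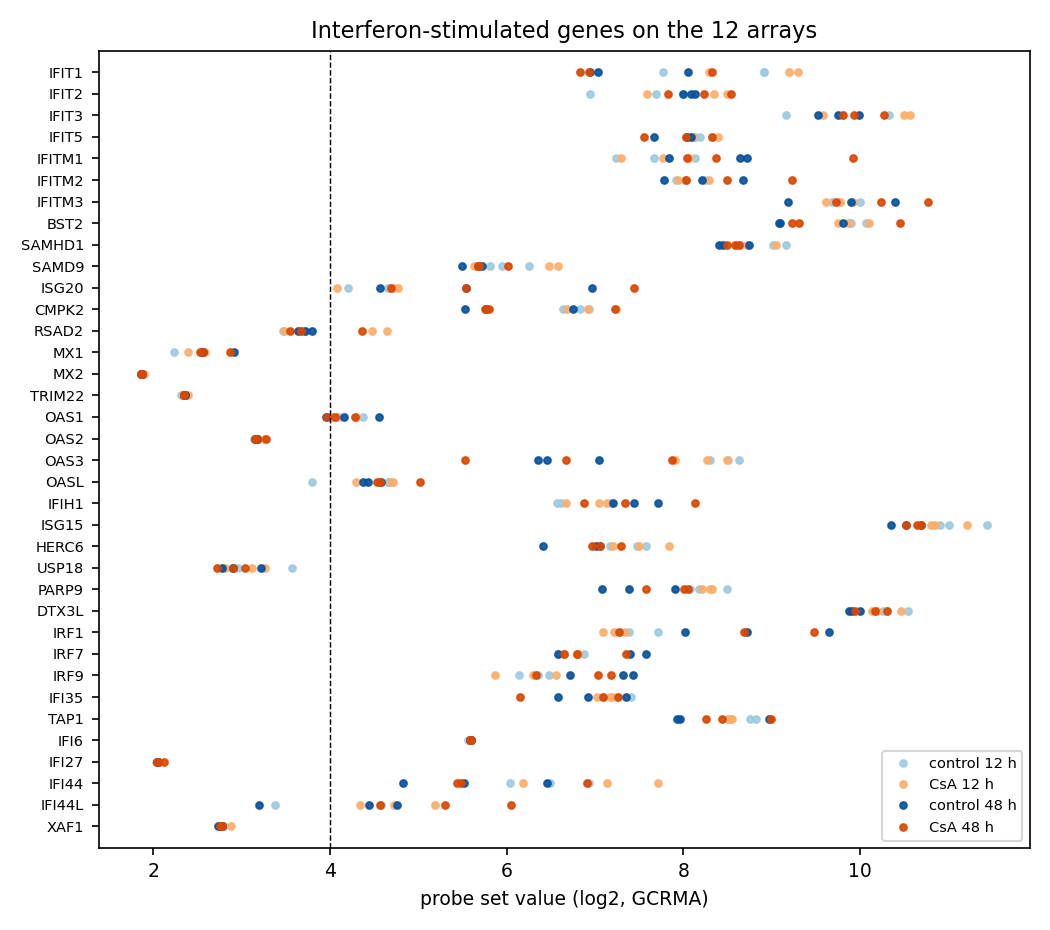
Value of each of the 36 measured interferon-stimulated genes (rows) on the 12 arrays, on the log2 GCRMA scale, with 1 point per array coloured by group and the dashed line at 4. Along a row the points can be compared between groups, but levels of different genes cannot, since each row is a different probe set. The 25 rows wholly right of the line were above 4 on all arrays, and IFI6 shows 1 point because its 12 values span 0.03.

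IFI6, which encodes a mitochondrial membrane protein with antiviral activity, read between 5.57 and 5.60 on all 12 arrays. Such a narrow range over the arrays, under 0.15, was seen in only 141 of the 21056 probe sets with a mean above 4, or 0.670%, against 41.1% of all 54613 probe sets. Although IFI6 passed the filter, its probe set therefore gave no information on the groups. Leaving it aside, 24 members were expressed in all groups and varied between arrays. Probe sets of IFITM2, IFITM3 and SAMHD1 are of the type that can match related transcripts, which matters for the closely similar IFITM genes.

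CsA and control cells were compared at each time to ask whether CsA alters interferon-stimulated genes in tubule cells. No member passed the test at 12 h or at 48 h. At 12 h IFIT1, IFIT2, IFIT3, IFI44 and IFI44L were above control in each of the 3 numbered pairs, by 0.15 to 0.97, while ISG15, OAS3 and DTX3L lay below it in each. At 48 h IFIT3, PARP9, BST2, TAP1 and DTX3L lay above control in each pair, and IRF1 and IRF9 lay below it in each. IFI44L also lay above control, by 0.55, 1.37 and 1.61 in pairs 1, 2 and 3. It entered the tests through its CsA groups, where it was higher, so its differences are given as a description. Among all tested genes 18.9% were above control in every pair at 12 h and 22.5% below. At 48 h these shares were 13.4% and 16.2%. Spread between the pairs was in most members larger than the difference between CsA and control.

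In numbers, limma with Benjamini-Hochberg adjustment over 10508 genes called 0 of 28 members at 12 h and 0 of 28 at 48 h, where 0% of all genes were called in either direction. At an unadjusted p under 0.05 the counts were 0 members at 12 h, against 1.31% of genes, and 1 member at 48 h, IFI44L, which entered through the CsA groups, against 2.52%. With the replicate number as a block again no member was called at 12 h, against 0.0285% of genes, or at 48 h, against 0%. In that fit 5 members, all above control, had an unadjusted p under 0.05 at 12 h and 6, all above control, at 48 h, against 3.49% and 5.21% of genes above control. Both counts include IFI44L, which entered through the CsA groups, so they are given as a description only. The median difference of the members was 0.011 at 12 h, beside -0.015 over all tested genes, and it was -0.017 when array medians were subtracted, so it had no settled direction. At 48 h the median was 0.18, beside -0.018 over all genes, and 21 of 28 members were above 0, beside 45.3% of all tested genes. The members were read from the same arrays, so such counts are not of independent values. Among the 25 members above 4 in all groups, so without IFI44L, OAS1 and OASL, the medians were 0.011 and 0.17, and 19 of 25 were above 0 at 48 h. The 48 h median of the 28 rested in part on single arrays. It was 0.056 without CsA 48 h replicate 3, 0.31 without CsA 48 h replicate 2, 0.099 without control 48 h replicate 3 and 0.10 without control 48 h replicate 2. The medians by pair at 48 h were 0.014, 0.035 and 0.28, and at 12 h 0.065, 0.025 and -0.016.

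By pair, 9 of 28 members, or 32.1%, were above control in all 3 pairs at 12 h, where 18.9% of all tested genes were. They were IFIT1, IFIT2, IFIT3, IFI6, IFI44, IFI44L, OASL, HERC6 and CMPK2, with IFI6 flat as described. Below control in all 3 pairs were IFI35, ISG15, OAS1, OAS3 and DTX3L, or 17.9% against 22.5% of genes. At 48 h the first count was 8, or 28.6% against 13.4% of genes, with IFIT3, IFI44L, ISG20, OASL, BST2, TAP1, PARP9 and DTX3L. The second was 2, IRF1 and IRF9, or 7.14% against 16.2%. IFIT3, IFI44L and OASL were above control in all 6 pairs. Of these, IFI44L entered the tests through its CsA groups and OASL did not pass the filter in control 12 h. A second probe set of OASL was not above control in all 6. The share of all genes above control in all 6 pairs was not counted. Of the 25 members above 4 in all groups, 28.0% were above control in all pairs at 12 h and 24.0% at 48 h. In no member were the CsA and control groups free of overlap. That was so in 5.37% of genes above and 6.57% below control at 12 h, and in 2% and 2.49% at 48 h. The range of the 3 pair means exceeded the CsA difference in 27 of 28 members at each time, or 96.4%, beside 81.4% of genes at 12 h and 91.7% at 48 h.

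**Figure D2:**
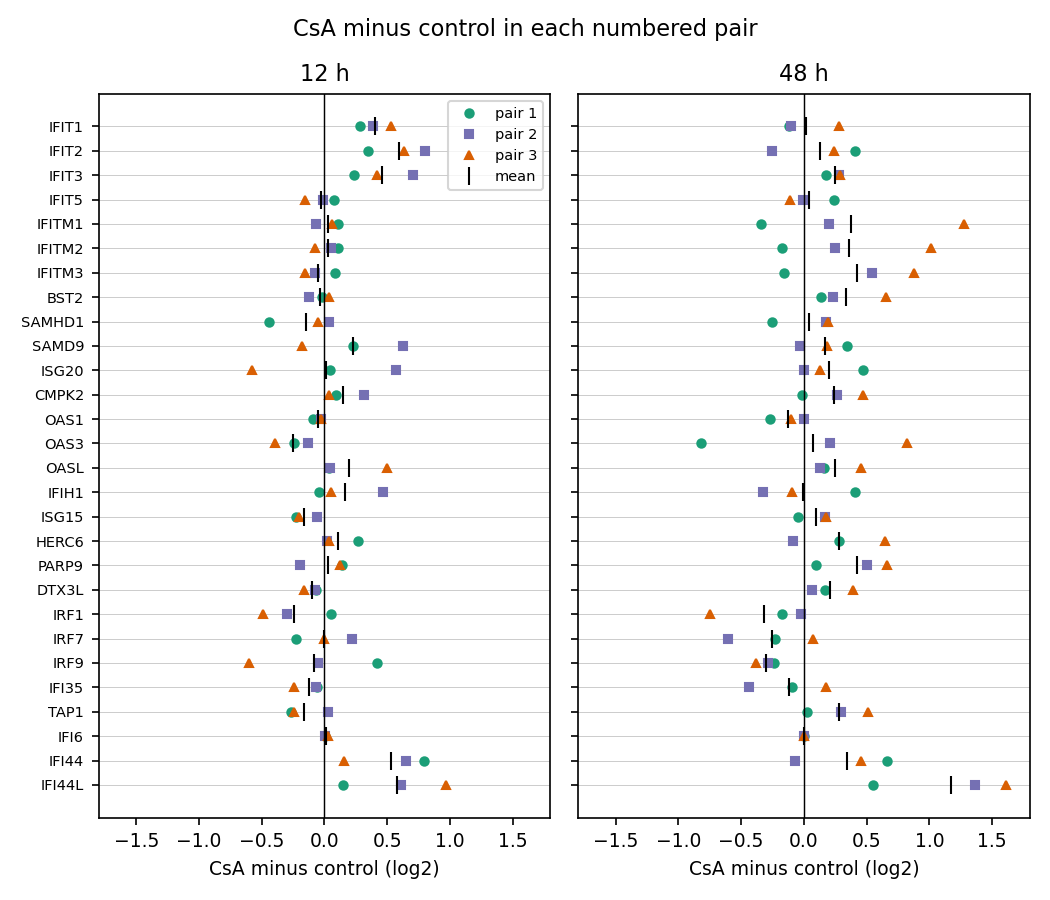
Difference of CsA minus control (log2, horizontal axis) in numbered pairs 1, 2 and 3 for the 28 tested members (rows) at 12 h (left) and 48 h (right), with a black bar at the mean. IFIT1, IFIT2, IFIT3, IFI44 and IFI44L lie right of 0 in all pairs at 12 h, and at 48 h the pair 3 points of IFI44L, IFITM1 and IFITM2 lie beyond 1.

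The IFIT proteins bind foreign RNA caps or assemble with one another to block translation, and 4 of the family were measured. IFIT1, which recognises caps that lack a methyl mark, measured 8.91, 8.91 and 7.77 in control and 9.20, 9.29 and 8.30 in CsA cells at 12 h, and 6.95, 7.04 and 8.05 in control and 6.83, 6.94 and 8.33 in CsA cells at 48 h. Its pair differences were 0.29, 0.39 and 0.53 at 12 h, with replicate 3 lower than the others in both groups, and -0.12, -0.10 and 0.28 at 48 h, with replicate 3 higher in both. The fitted difference was 0.40 ± 0.49 (SE, 95% interval -0.68 to 1.48, adjusted p 1.00) at 12 h, and with the block the interval was 0.16 to 0.64 and the adjusted p 0.487. At 48 h it was 0.019 ± 0.49 (SE), so CsA and control did not separate there, although the interval, -1.06 to 1.10, still allowed a doubling either way.

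IFIT2, a partner of IFIT3 that also binds RNA, measured 8.00, 7.69 and 6.95 in control and 8.34, 8.49 and 7.58 in CsA cells at 12 h, and 8.14, 8.08 and 8.00 in control and 8.54, 7.83 and 8.24 in CsA cells at 48 h. CsA was above control by 0.34, 0.80 and 0.64 in the 12 h pairs, and the 48 h pairs did not share a direction, at 0.41, -0.25 and 0.24. The 12 h difference was 0.59 ± 0.30 (SE), a fold of 1.51, with an adjusted p of 1.00 and of 0.456 with the block. A second probe set of IFIT2 lay above control in all 6 pairs.

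IFIT3, which stabilises IFIT1, measured 10.33, 9.79 and 9.16 in control and 10.56, 10.50 and 9.58 in CsA cells at 12 h, and 9.75, 9.53 and 9.98 in control and 9.93, 9.81 and 10.27 in CsA cells at 48 h. Pair by pair CsA was higher by 0.24, 0.71 and 0.42 at 12 h and by 0.18, 0.28 and 0.28 at 48 h, and a second probe set of the gene was also higher in all 6. The differences were 0.45 ± 0.32 and 0.25 ± 0.32 (SE), with adjusted p 1.00 and 0.999, and the groups overlapped at both times. With the block the adjusted p was 0.405 at 12 h, the lowest of any member there, and 0.392 at 48 h. IFIT5, which binds RNA with a free triphosphate end, measured 8.32, 8.13 and 8.19 in control and 8.40, 8.11 and 8.03 in CsA cells at 12 h, and 8.09, 8.04 and 7.66 in control and 8.33, 8.03 and 7.55 in CsA cells at 48 h. IFIT5 showed no shared direction, with pair differences of 0.074, -0.014 and -0.16 at 12 h and 0.24, -0.0088 and -0.11 at 48 h.

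IFI44 and IFI44L are related cytoplasmic proteins that are widely used as markers of an interferon response. IFI44 measured 6.93, 6.49 and 6.03 in control and 7.72, 7.14 and 6.19 in CsA cells at 12 h, and 4.82, 5.51 and 6.45 in control and 5.48, 5.44 and 6.91 in CsA cells at 48 h. CsA cells were higher by 0.79, 0.65 and 0.15 at 12 h, and at 48 h by 0.66, -0.073 and 0.46, with pair 2 near 0. The fitted differences were 0.53 ± 0.53 and 0.35 ± 0.53 (SE), each well inside the spread of the pairs, whose means ranged over 1.21 at 12 h and 1.53 at 48 h. IFI44L measured 4.57, 4.58 and 3.37 in control and 4.72, 5.19 and 4.34 in CsA cells at 12 h, and 4.75, 3.19 and 4.45 in control and 5.30, 4.56 and 6.05 in CsA cells at 48 h. It was above control by 0.15, 0.61 and 0.97 at 12 h and by 0.55, 1.37 and 1.61 at 48 h, yet 1 CsA array at 48 h lay below the highest control array. In each control group 1 array was below 4, so the gene passed the filter through the CsA groups only and no fold is given. The 48 h difference was 1.18 ± 0.50 (SE) and did not pass. Its adjusted p was 0.999, and 0.296 with the block, the lowest of any member at that time. At 12 h the difference was 0.58 ± 0.50 (SE), and the effects at the 2 times differed by 0.60 ± 0.71 (SE, adjusted p 1.00).

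**Figure D3:**
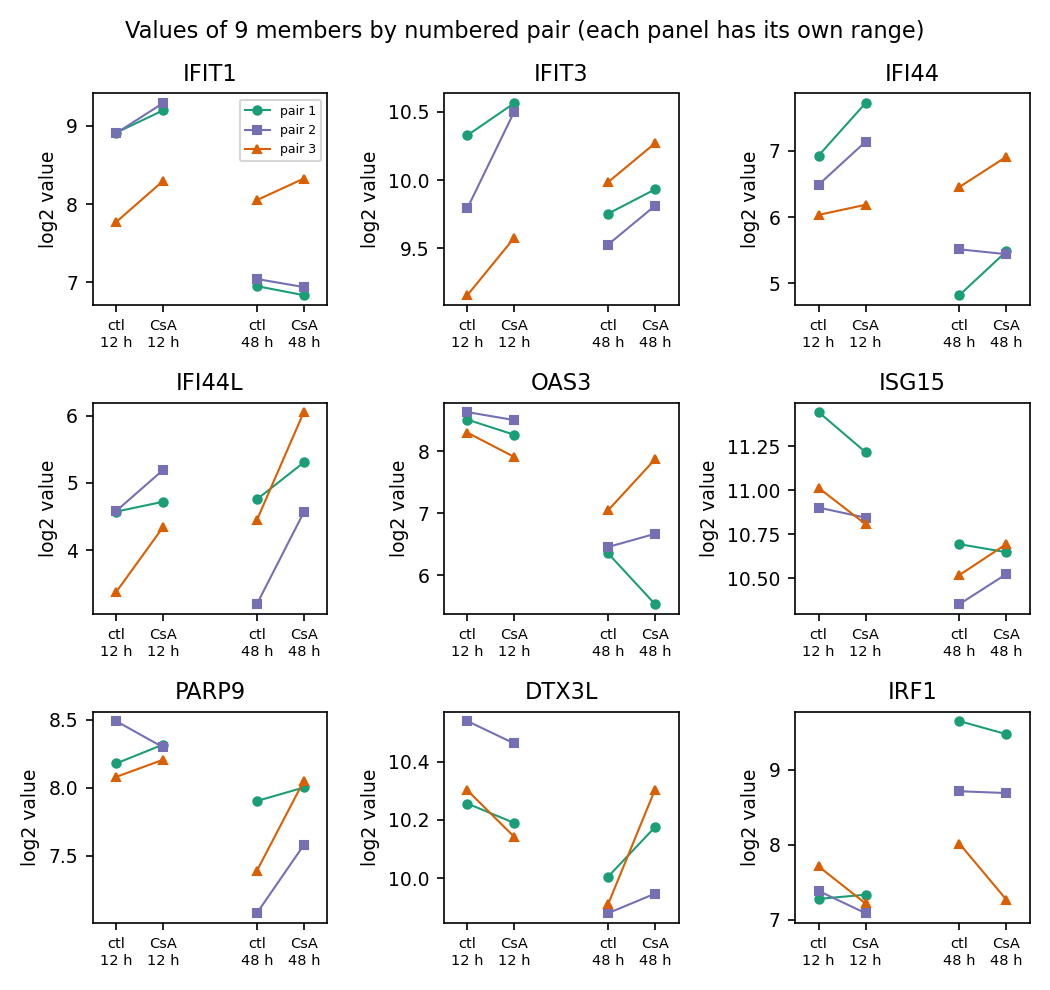
Values on the log2 scale (vertical axis, a range of its own in each panel) of 9 members in control (ctl) and CsA cells at 12 h and 48 h, with lines joining arrays of the same number and time. Lines rise in all 12 h pairs of IFIT1, IFIT3, IFI44 and IFI44L, and in IFIT1, IFI44 and OAS3 the pair 3 points at 48 h sit above those of pairs 1 and 2.

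The membrane proteins of the list act where viruses enter or leave. IFITM1, which hinders fusion of viral and cell membranes at the cell surface, measured 7.67, 8.13 and 7.23 in control and 7.77, 8.06 and 7.29 in CsA cells at 12 h, and 8.72, 7.84 and 8.64 in control and 8.37, 8.04 and 9.92 in CsA cells at 48 h. At 12 h the pairs differed by 0.10, -0.072 and 0.062, and at 48 h by -0.34, 0.20 and 1.28, with only CsA replicate 3 set apart from the rest. IFITM2 and IFITM3, which act on endosomes, also had their highest 48 h value in CsA replicate 3. IFITM2 measured 7.92, 8.25 and 8.02 in control and 8.03, 8.30 and 7.94 in CsA cells at 12 h, and 8.67, 7.79 and 8.21 in control and 8.49, 8.03 and 9.23 in CsA cells at 48 h. IFITM3 measured 9.68, 10.00 and 9.77 in control and 9.77, 9.92 and 9.62 in CsA cells at 12 h, and 10.39, 9.19 and 9.89 in control and 10.24, 9.73 and 10.78 in CsA cells at 48 h. Their 48 h pair differences were -0.17, 0.25 and 1.02 and -0.16, 0.54 and 0.88, from below 0 in pair 1 to the largest value in pair 3. In IFITM3 control replicate 2 was the lowest 48 h array. The 48 h differences of the 3 genes were 0.38 ± 0.46, 0.36 ± 0.29 and 0.42 ± 0.31 (SE), and none passed. BST2, or tetherin, which holds budding virions on the cell, measured 9.90, 9.87 and 10.07 in control and 9.88, 9.75 and 10.10 in CsA cells at 12 h, and 9.09, 9.08 and 9.80 in control and 9.23, 9.31 and 10.46 in CsA cells at 48 h. BST2 differed by -0.023, -0.12 and 0.033 at 12 h and was above control by 0.13, 0.23 and 0.65 at 48 h, where its difference of 0.34 ± 0.31 (SE) had an adjusted p of 0.999, and 0.368 with the block.

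Enzymes and sensors that act on nucleic acid or nucleotides made up the next group. OAS3, a synthetase that answers double-stranded RNA by making the activator of RNase L, measured 8.51, 8.63 and 8.30 in control and 8.26, 8.50 and 7.90 in CsA cells at 12 h, and 6.35, 6.45 and 7.05 in control and 5.53, 6.67 and 7.87 in CsA cells at 48 h. CsA was below control in each 12 h pair, with differences of -0.24, -0.13 and -0.39, and at 48 h the pairs ran from below to above 0, at -0.82, 0.21 and 0.82. The fitted differences were -0.25 ± 0.46 and 0.071 ± 0.46 (SE). OAS1, a smaller member of that family, measured 4.38, 4.10 and 4.03 in control and 4.29, 4.07 and 4.01 in CsA cells at 12 h, and 4.56, 3.96 and 4.15 in control and 4.28, 3.96 and 4.05 in CsA cells at 48 h, all near the filter level of 4. Subtracting control from CsA pair by pair gave -0.089, -0.029 and -0.025 for OAS1 at 12 h and -0.27, 0.0034 and -0.10 at 48 h, above 0 in 1 of the 6 pairs. OASL, a relative that lacks the synthetase activity and enhances RIG-I signalling, measured 4.66, 4.66 and 3.79 in control and 4.70, 4.71 and 4.29 in CsA cells at 12 h, and 4.37, 4.43 and 4.57 in control and 4.53, 4.56 and 5.02 in CsA cells at 48 h. OASL was above control in all pairs, by 0.038, 0.045 and 0.50 and 0.16, 0.13 and 0.45. A second probe set of OASL differed by 1.36, 0.96 and -0.25 at 12 h and by -0.31, -1.05 and 0.71 at 48 h. Its mean difference thus had the opposite sign at 48 h, and it was below control in pair 3 at 12 h. IFIH1, the RNA sensor MDA5, measured 7.19, 6.57 and 6.61 in control and 7.14, 7.04 and 6.67 in CsA cells at 12 h, and 7.72, 7.20 and 7.44 in control and 8.13, 6.87 and 7.34 in CsA cells at 48 h. IFIH1 under CsA differed from control by -0.046, 0.47 and 0.055 at 12 h and 0.41, -0.33 and -0.096 at 48 h, with no shared direction.

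ISG20, an exonuclease that degrades RNA, measured 4.68, 4.20 and 4.66 in control and 4.72, 4.77 and 4.08 in CsA cells at 12 h, and 6.97, 5.53 and 4.56 in control and 7.45, 5.54 and 4.69 in CsA cells at 48 h. Its pairs at 48 h lay 2.58 apart, whereas CsA differed from control within them by 0.47, 0.0038 and 0.13, so the replicate number separated its arrays far more than CsA did. SAMHD1, which removes the nucleotides that reverse transcription needs, measured 9.16, 9.01 and 8.66 in control and 8.72, 9.05 and 8.61 in CsA cells at 12 h, and 8.74, 8.45 and 8.40 in control and 8.49, 8.63 and 8.59 in CsA cells at 48 h. It gave pair differences of -0.44, 0.040 and -0.050 and -0.25, 0.18 and 0.19, and at 48 h 3 of its other probe sets had the opposite sign to the one used. SAMD9, an antiviral protein that arrests translation, measured 6.25, 5.95 and 5.81 in control and 6.48, 6.58 and 5.63 in CsA cells at 12 h, and 5.67, 5.72 and 5.49 in control and 6.02, 5.69 and 5.68 in CsA cells at 48 h. SAMD9 gave no shared direction, with 0.23, 0.63 and -0.18 in the 12 h pairs. CMPK2, a mitochondrial nucleotide kinase encoded next to RSAD2, measured 6.84, 6.93 and 6.64 in control and 6.92, 7.24 and 6.68 in CsA cells at 12 h, and 5.76, 5.53 and 6.75 in control and 5.75, 5.79 and 7.23 in CsA cells at 48 h. In CMPK2 replicate 3 stood above replicates 1 and 2 in both 48 h groups, and the differences by pair at 12 h were 0.088, 0.31 and 0.039, against -0.013, 0.26 and 0.47 at 48 h.

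The ubiquitin-like protein ISG15 is given here with HERC6, PARP9 and DTX3L. ISG15, the tag itself, measured 11.44, 10.90 and 11.01 in control and 11.22, 10.84 and 10.81 in CsA cells at 12 h, and 10.69, 10.35 and 10.52 in control and 10.65, 10.52 and 10.69 in CsA cells at 48 h. CsA differed from control by -0.23, -0.057 and -0.21 in the 12 h pairs and by -0.045, 0.17 and 0.18 at 48 h, with fitted values of -0.16 ± 0.16 and 0.10 ± 0.16 (SE). HERC6, a relative of the ligase that attaches ISG15 in human cells, measured 7.58, 7.48 and 7.17 in control and 7.84, 7.50 and 7.20 in CsA cells at 12 h, and 7.01, 7.06 and 6.41 in control and 7.29, 6.97 and 7.06 in CsA cells at 48 h. HERC6 pairs differed by 0.26, 0.021 and 0.033 and 0.28, -0.089 and 0.65. PARP9 and DTX3L form a complex that modifies histones and aids interferon signalling, and, as in the stretches printed above, their starts share 1 match to the response element. PARP9 measured 8.18, 8.49 and 8.08 in control and 8.32, 8.30 and 8.21 in CsA cells at 12 h, and 7.90, 7.08 and 7.39 in control and 8.00, 7.58 and 8.05 in CsA cells at 48 h. DTX3L measured 10.26, 10.54 and 10.30 in control and 10.19, 10.46 and 10.14 in CsA cells at 12 h, and 10.01, 9.88 and 9.91 in control and 10.18, 9.95 and 10.30 in CsA cells at 48 h. At 48 h both were above control in every pair, by 0.10, 0.50 and 0.66 for PARP9 and by 0.17, 0.067 and 0.39 for DTX3L, with differences of 0.42 ± 0.21 and 0.21 ± 0.13 (SE). Their adjusted p-values were 0.999 for each, and 0.363 and 0.392 with the block. At 12 h DTX3L was below control in every pair, with differences of -0.067, -0.077 and -0.16, and PARP9 was not, at 0.14, -0.19 and 0.13. The change of the DTX3L difference between the times was 0.31 ± 0.18 (SE, adjusted p 1.00).

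Transcription factors came next. IRF9, the DNA-binding part of the interferon complex, measured 6.13, 6.35 and 6.48 in control and 6.55, 6.29 and 5.87 in CsA cells at 12 h, and 7.42, 7.31 and 6.71 in control and 7.18, 7.03 and 6.33 in CsA cells at 48 h. IRF1, an early target of interferon gamma that drives antigen presentation genes, measured 7.28, 7.39 and 7.71 in control and 7.34, 7.09 and 7.22 in CsA cells at 12 h, and 9.65, 8.72 and 8.02 in control and 9.48, 8.69 and 7.27 in CsA cells at 48 h. IRF7, the amplifier of type I interferon genes, measured 6.88, 6.58 and 6.80 in control and 6.65, 6.80 and 6.79 in CsA cells at 12 h, and 7.58, 7.40 and 6.58 in control and 7.35, 6.80 and 6.65 in CsA cells at 48 h. IRF1 and IRF9 were below control in every 48 h pair, with differences of -0.17, -0.025 and -0.75 for IRF1 and -0.24, -0.29 and -0.38 for IRF9, whereas IRF7 varied, at -0.23, -0.60 and 0.070. Their 48 h differences were -0.32 ± 0.51, -0.30 ± 0.26 and -0.25 ± 0.25 (SE), and none passed, with adjusted p 0.999 in each. A second probe set of IRF1 gave 48 h pair differences of 0.0054, -0.10 and -0.018, so it was not below control in every pair. IFI35, a leucine zipper protein that associates with other interferon-induced factors, measured 7.25, 7.09 and 7.41 in control and 7.19, 7.02 and 7.17 in CsA cells at 12 h, and 7.35, 6.58 and 6.92 in control and 7.26, 6.15 and 7.10 in CsA cells at 48 h. It did not share a direction between pairs at 48 h, at -0.091, -0.43 and 0.17.

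TAP1, which with TAP2 pumps peptides into the endoplasmic reticulum for MHC class I, measured 8.82, 8.50 and 8.76 in control and 8.56, 8.53 and 8.51 in CsA cells at 12 h, and 8.97, 7.96 and 7.93 in control and 8.99, 8.25 and 8.44 in CsA cells at 48 h. TAP1 was above control by 0.026, 0.29 and 0.51 at 48 h, but pair 1 stood higher than pairs 2 and 3 in both groups, so the groups overlapped. The difference was 0.28 ± 0.27 (SE, adjusted p 0.999, with the block 0.392). In the list of antigen processing and MHC class I genes, 0 of 12 tested genes were called in either CsA comparison. At 48 h 11 of these 12 were above 0, beside 45.3% of all tested genes, with a median of 0.15. HLA-B and HLA-C, which present the peptides, differed by 0.24 ± 0.15 and 0.19 ± 0.12 (SE) at 48 h.

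Over the rest of the pathway, CsA left no call either. Of 13 ligand and receptor genes 5 were tested, and IFNB1, IFNA1, IFNA2, IFNL1, IFNG, IFNE, IFNK and the receptor IFNLR1 were not, with IFNB1 between 2.30 and 2.36 on all arrays. IFNAR1 differed by -0.18 ± 0.19 and 0.043 ± 0.19, and IFNAR2 by -0.080 ± 0.14 and 0.0015 ± 0.14 (SE), at 12 h and 48 h. Of the signalling genes 12 were tested, and the receptor kinases JAK1 and TYK2 differed by -0.080 ± 0.10 and -0.0088 ± 0.10 (SE) at 48 h. None of the 12 signalling, 7 nucleic acid sensing and 26 other interferon-stimulated genes tested was called at either time, without or with the block. The other interferon-stimulated genes had a median of 0.0012 at 12 h and 0.066 at 48 h. Of the 26, 20 were above 0 at 48 h, beside 45.3% of all tested genes. EIF2AK2, the kinase PKR, had the largest moderated statistic of these at 48 h, with a difference of 0.31 ± 0.16 (SE, adjusted p 0.999).

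The 12 h and 48 h groups were compared to see how the genes changed over time in culture, first in controls and then under CsA. In control cells 5 of the 28 members were called, or 17.9% beside 26.2% of all genes, and each of these calls failed in some fits that left out 1 array. OAS3, PARP9, ISG15 and DTX3L fell and IRF9 rose. OAS3 fell most, by 1.86 on the log2 scale, a fold of 3.63. IFIT1, IRF1 and ISG20 differed by more than 1 between the times but did not pass, and their replicates lay far apart at 48 h. Levels are of cultures as a whole, so fewer cells of a kind and less RNA per cell cannot be told apart.

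Against the background, the 4 members that fell are 14.3% of those tested, beside 13.7% of all genes, and the 1 that rose is 3.57%, beside 12.5%. The count of falling members was thus near that of genes in general. At an unadjusted p under 0.05 there were 10 members, or 35.7%, beside 41.8% of genes. The median change was -0.16, beside 0.0076 over all genes, and 16 of 28 were below 0, where 50.9% of all genes were above 0. Arrays of the 2 times did not overlap in 8 members that were lower at 48 h, or 28.6% beside 25.2% of genes, and in 3 that were higher, or 10.7% beside 24.9%. The first were IFIT5, ISG15, OAS3, SAMD9, BST2, HERC6, PARP9 and DTX3L, and the second IFIH1, IRF1 and IRF9. These comparisons use the same control arrays as the comparisons of CsA with control, and same-numbered arrays of the 2 times were not paired.

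OAS3 in controls fell from 8.51, 8.63 and 8.30 at 12 h to 6.35, 6.45 and 7.05 at 48 h, with no overlap. The change was -1.86 ± 0.46 (SE, 95% interval -2.88 to -0.84, adjusted p 0.0172). The call did not hold without control 12 h replicate 1 (adjusted p 0.0505) or replicate 2 (0.0563), or without control 48 h replicate 1 (0.0600) or replicate 2 (0.0580), with the direction kept. PARP9 fell from 8.18, 8.49 and 8.08 to 7.90, 7.08 and 7.39, a change of -0.79 ± 0.21 (SE, adjusted p 0.0205). Without control 12 h replicate 2 its adjusted p was 0.0751 and without control 48 h replicate 2 it was 0.0725.

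ISG15 fell from 11.44, 10.90 and 11.01 to 10.69, 10.35 and 10.52, by 0.60 with an SE of 0.16 (adjusted p 0.0256). Its call was lost without control 12 h replicate 1 (adjusted p 0.0847), control 12 h replicate 3 (0.0549) or control 48 h replicate 2 (0.0893). DTX3L fell from 10.26, 10.54 and 10.30 to 10.01, 9.88 and 9.91, a change of -0.43 ± 0.13 (SE, adjusted p 0.0346). IRF9 rose from 6.13, 6.35 and 6.48 to 7.42, 7.31 and 6.71, a change of 0.83 ± 0.26 (SE, adjusted p 0.0418). DTX3L was called in 5 of the 12 fits that left out 1 array, losing the call without any 1 of the 6 control arrays or CsA 12 h replicate 1, with adjusted p up to 0.117. IRF9 was also called in 5 of 12, failing without any control array other than control 48 h replicate 3, without CsA 12 h replicate 2 or without CsA 48 h replicate 2, with adjusted p up to 0.137.

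Under CsA no member passed between 12 h and 48 h, where 6.77% of all genes rose and 7.58% fell. OAS3 went from 8.26, 8.50 and 7.90 to 5.53, 6.67 and 7.87, with a change of -1.53 ± 0.46 (SE, adjusted p 0.0507). IFIT1 went from 9.20, 9.29 and 8.30 to 6.83, 6.94 and 8.33, with a change of -1.56 ± 0.49 (SE, adjusted p 0.0556). In IFIT1 the 48 h value of replicate 3 stood apart from replicates 1 and 2 and nearer to the 12 h arrays, whereas the 48 h values of OAS3 were spread evenly. At an unadjusted p under 0.05 there were 5 members, or 17.9%, beside 33.2% of genes, and only ISG15, OAS3 and PARP9 had arrays that did not overlap, all lower at 48 h, or 10.7% beside 18.9%. On the difference between the changes in CsA and control cells, 0 of 28 members were called and 0% of genes, and 0 members, beside 1.54% of genes, had an unadjusted p under 0.05.

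**Figure D4:**
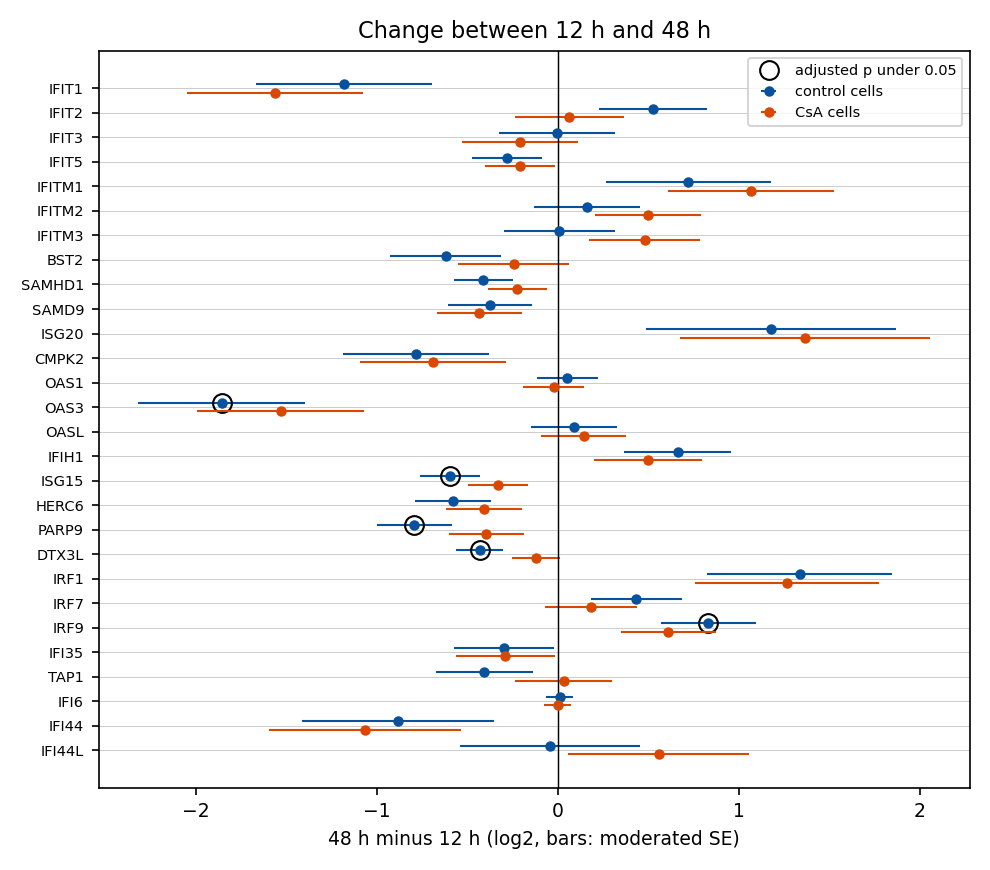
Change from 12 h to 48 h (log2, horizontal axis) of the 28 tested members (rows) in control cells (blue) and CsA cells (orange), as fitted differences with bars of 1 moderated standard error, and open circles round those with an adjusted p under 0.05. The 5 circles are all in control cells, at OAS3, PARP9, ISG15 and DTX3L below 0 and IRF9 above 0.

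The calls over time depended on single arrays, and so did the share of all genes called. Without CsA 48 h replicate 3 the members called were 8 in CsA cells, namely IFIT1, IFI44, OAS3, BST2, CMPK2, ISG20, IRF1 and IRF9, or 28.6% beside 37% of all genes, and 9 in controls, or 32.1% beside 38.4%. Without control 48 h replicate 3 there were 7 in controls, or 25.0% beside 30.3% of genes. Without control 48 h replicate 2 there were 0 in controls, beside 13.8% of genes. Leaving out control 12 h replicate 1 or replicate 2 left 1 in each case, beside 15% and 14.3% of genes. The count in controls was 2 without control 12 h replicate 3, beside 12.6% of genes, and 3 without control 48 h replicate 1, beside 13.5%. In each of these fits the members' share was below that of all genes. Over all genes the median distance of a pair mean at 48 h from the 12 h mean was 0.42, 0.33 and 0.24 for pairs 1, 2 and 3, and in the members it was 0.50, 0.43 and 0.35. Pair 3 was the nearest in 12 of 28 members, or 42.9%, beside 54.1% of all genes. What set the pairs apart was not tested.

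In the wider pathway the calls in controls are given by list, to be read beside the 12.5% of all genes that rose and the 13.7% that fell. IFNGR1, a chain of the interferon gamma receptor, went from 9.30, 9.47 and 9.70 to 10.49, 10.44 and 10.38 and rose by 0.95 (SE 0.20, adjusted p 0.00919). IFNAR1 fell by 0.67 (adjusted p 0.0307), so 1 of 5 tested ligand and receptor genes rose and 1 fell. JAK1 fell by 0.36 and IRF3, the factor that switches on the interferon beta gene, fell by 0.87 (adjusted p 0.027 and 0.0112), with 0 of 12 signalling genes rising and 2 falling. Of 7 sensing genes 2 rose and 1 fell. IFI16, a nuclear DNA sensor, rose by 1.18 and RIGI, the RNA sensor RIG-I, by 0.62, whereas CGAS, the cytosolic DNA sensor, fell by 2.52 (adjusted p 0.00414, 0.0411 and 0.0224).

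Among 26 other interferon-stimulated genes 0 rose and 5 fell in controls, where 12.5% of all genes rose and 13.7% fell. They were PML, the organiser of nuclear bodies, by 0.98, TRIM14, an adaptor of MAVS signalling, by 1.49, PARP12 by 0.57, the GTPase GBP1 by 1.52 and EIF2AK2 by 0.48, with adjusted p 0.00128, 0.00856, 0.0176, 0.0369 and 0.0487. IFNGR1, IRF3, IFI16, PML and TRIM14 kept their calls in all 12 fits that left out 1 array, and each other call named here failed without at least 1 of the arrays. Under CsA JAK1 fell by 0.43, PML by 0.59 and TRIM14 by 1.24, and IFI16 rose by 0.87 and HLA-C by 0.43, with adjusted p 0.0224, 0.0154, 0.0272, 0.0224 and 0.046. None of these 5 held in all 12 such fits, and 6.77% of all genes rose and 7.58% fell under CsA. Beside these changes, of the 9 epithelial markers tested EPCAM rose and KRT8, CDH2 and VIM fell in controls, where 12.5% of all genes rose and 13.7% fell. EPCAM also rose under CsA (adjusted p 0.0349), a call kept in 5 of the 12 fits that left out 1 array. The summed log2 level of the 18 markers lay between 15.4 and 15.6 at 12 h and between 15.3 and 15.4 at 48 h. Their part in the result was not tested.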

How the data were processed

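The values are log2 GCRMA values of 12 arrays deposited by the authors, per the submitters' processing notes. GCRMA subtracts a background modelled on each probe's bases, puts arrays on 1 distribution and reduces probes to 1 value per probe set. Its version is not given in the sources used here, and nothing was normalised again. Arrays have no read depth, and their number limits the precision.

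Of 54675 probe sets, 62 controls were left out, and 41091 had 1 gene symbol, 1801 several and 11721 none in the platform annotation. For each symbol the probe set with the highest mean was used. A gene was tested if it was above 4 on at least 3 arrays of a group, so on all arrays of it.

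Differences were fitted over all genes with limma 3.58.1 in R 4.3.3, as 4 group means over 12 arrays, moderated by eBayes without trend, two-sided, with Benjamini-Hochberg adjustment and a threshold of 0.05. The fits were run on simulated data to check the code only. For the main fit the simulated arrays were drawn independently, without the correlation of same-numbered arrays given next. Deviations of CsA and control arrays of the same number correlated across genes at 0.37, 0.53 and 0.59 at 12 h and 0.78, 0.54 and 0.74 at 48 h, each array best with its own number. No label explains the numbers, so the pairing rests on these correlations, and the replicate block was fitted as an alternative. Numbers did not meet that bar between times, where the block was run only as an alternative.

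The members and lists (ligands and receptors, signalling and feedback, nucleic acid sensing, antigen processing with MHC class I, other interferon-stimulated genes, epithelial and tubule markers, leukocyte markers) were chosen with earlier results of these data known. All members are accounted for. From the lists, genes past the threshold are named, with up to 4 per list of largest moderated statistic in a CsA comparison, and IFNB1, IFNAR1, IFNAR2, JAK1, TYK2 and IRF3 whatever their values. Python 3.11.15 and pandas 2.3.3 made the tables and the motif counts. Alternatives were other filters on low values, trend and robust moderation, other scaling, fewer groups in the fit, the mean of a gene's probe sets, leaving out arrays or pairs, and for expression the levels 3 and 5.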

Additional observations from a re-analysis of the deposited data

Results flagged for a closer look

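DTX3L, a ubiquitin ligase that partners PARP9, was below control under CsA in all 3 pairs at 12 h (-0.067, -0.077 and -0.16) and above it in all 3 at 48 h (0.17, 0.067 and 0.39), which brought it here because the 2 times went opposite ways in every pair. The difference between the effects was 0.31 (SE 0.18), and it did not pass with limma and Benjamini-Hochberg adjustment (adjusted p 1.00, and 0.542 with the replicate block). Of the 28 tested members it was the only 1 with that pattern. The share of all tested genes with it was not counted, so the pattern is not shown to be unusual. It also fell with time in control cells, so the 48 h difference is measured against lower control values.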

How the results depend on the processing

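For CsA against control, and for the difference of its effects, 0 members were called under every alternative that was run at either time. The paired fit with the replicate block left all 3 counts at 0, with the lowest adjusted p at 0.405 for 12 h, 0.296 for 48 h and 0.542 for the difference. The 48 h value is that of IFI44L, which entered the tests through its CsA groups, where it was higher, so it is given as a description only. Leaving out 1 array in turn moved the 12 h median between -0.011 and 0.080, the latter without CsA 12 h replicate 3. In control cells over time the 5 calls became 2, OAS3 and PARP9, with no filter on low values, and between 0 and 9 when 1 array was left out. HERC6 was gained with quantile normalization again, and IRF1 with only the 2 groups in the fit. Same-numbered arrays of the 2 times correlated between -0.14 and 0.23, and with the replicate block across times the control calls were HERC6, IFIH1, ISG15 and OAS3, and CsA cells had 0. In CsA cells the count was 1, OAS3, with the filter at 5, with trend and robust moderation, with the mean of a gene's probe sets, and without genes that range under 0.15 over the arrays, and between 0 and 8 when 1 array was left out. The alternatives without flat genes, with only members above 4 in all groups, with a filter of 4 on any 3 of the 12 arrays and with the block under trend and robust moderation were chosen after seeing the data. No called value changed sign under any alternative run. Among the single genes named, 109 values in controls and 45 in CsA cells lost their call over time, and 22 and 31 gained it. With 3 arrays a group, intervals such as that of IFIT1 leave a doubling within reach, so an uncalled member is not shown to be unchanged.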

Other observations

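Among the members below the filter, RSAD2, or viperin, an enzyme that makes a chain-terminating nucleotide and is encoded beside CMPK2, varied the most. It read 3.67, 3.72 and 3.46 in control and 4.65, 4.48 and 3.48 in CsA cells at 12 h, and 3.64, 3.79 and 3.72 in control and 3.55, 4.36 and 3.67 in CsA cells at 48 h, and thus crossed 4 on 3 CsA arrays and on no control array. MX1, a GTPase that traps viral nucleocapsids, read 2.54, 2.55 and 2.23 in control and 2.39, 2.58 and 2.54 in CsA cells at 12 h, and 2.91, 2.56 and 2.55 in control and 2.56, 2.87 and 2.53 in CsA cells at 48 h. USP18, the protease that removes ISG15, read 3.56, 2.89 and 2.96 in control and 3.27, 2.81 and 3.11 in CsA cells at 12 h, and 2.90, 2.78 and 3.21 in control and 2.91, 2.72 and 3.04 in CsA cells at 48 h. RSAD2, MX1 and USP18 lay near or below the filter and were not in the main fit. Under looser filters limma with Benjamini-Hochberg adjustment called none of them. There RSAD2 differed between CsA and control by 0.58 at 12 h (lowest adjusted p 0.990) and by 0.15 at 48 h (lowest adjusted p 0.999). A second probe set of RSAD2 reached at most 3.25. IFI27, MX2, OAS2, TRIM22 and XAF1 gave no array above 4 in any group.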
